A study of Rattus norvegicus with 5 samples.

Results

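RNA of a rat lens exposed to methyl methanesulfonate (MMS) for 4 days was set against RNA of a lens kept for the same 4 days in plain medium (Control). This is the only treated and untreated pair in the study with equal time in culture. The comparison took every probe set that carried a gene name and had a log2 signal of 5 or more in MMS Day 4 or in Control, which left 4122 of 19086 named probe sets, out of 36685 on the array, and 3876 of 18166 genes once probe sets with several gene names were left out. The study cultured whole lenses of 6-week-old male Sprague Dawley rats outside the body in serum-free medium. The MMS Day 4 lens received 1 mM MMS, renewed daily with the medium, and the Control lens received none. The other 3 arrays of the series read lenses after 2 days of 1 mM MMS (MMS Day 2) and after 2 and 6 days of 800 μg/mL Bleomycin (Bleomycin Day 2 and Bleomycin Day 6). Each of the 5 conditions had 1 array, the Control array reading a single lens. No difference below has a replicate array, and neither an error nor a p-value is given. For some of the higher genes the study ran RT-qPCR with biological replicates, as described below with its table. In the culture scheme a rat gave a lens to the drug and the lens of its other eye to plain medium, but whether the Control lens on the array was the fellow of the MMS Day 4 lens is not stated. Differences are log2 signal in MMS Day 4 minus Control, so that 1 stands for 2-fold, and "2-fold" below means 2-fold or more.

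MMS is a methylating agent that modifies bases of DNA, and the damaged bases are removed by base excision repair. The lens has a single layer of epithelial cells on its front face, which divide, carry most of the pumps and transporters, and feed new cells into the fiber mass. Fiber cells fill the rest of the lens, are packed with crystallins, and lose their nuclei and other organelles as they mature, so that most new transcription in a lens comes from the epithelium and the outer fibers.

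The tissue matched its label: the 10 lens fiber markers on the array had signals of 7.50 to 13.3 in MMS Day 4 and 8.35 to 13.3 in Control. Of the 9 lens epithelium markers 8 reached 5 in at least 1 of the arrays, with a median over the 9 of 4.55 in MMS Day 4 and 6.82 in Control. The log2 of their summed signals was 9.24 in MMS Day 4 and 10.8 in Control, against 15.7 and 15.6 for the fiber markers. Maf, the brightest of the 9 (8.37 in MMS Day 4 and 9.24 in Control), weighed most in that sum. Maf (-0.87) and Prox1 (6.89 in MMS Day 4 and 8.13 in Control, -1.23) fell least of the 8. Whether their signal came from epithelium or from fibers was not tested, so the sum is not a measure of the epithelium alone. None of the measured markers of retina (0 of 5), cornea (0 of 3), blood (0 of 1), leukocytes (0 of 6) or vessels (0 of 3) reached 5. The muscle protein desmin (Des, among the ciliary body and iris markers) had 2.79 in MMS Day 4 and 5.59 in Control, and Pdgfra, listed as a fibroblast marker, had 3.70 in MMS Day 4 and 7.20 in Control, while the other 6 and 4 genes of those lists stayed under 5. From whole-lens RNA alone, fewer epithelial cells and less RNA per epithelial cell cannot be told apart, and this touches every gene of the epithelium named below. The paper's stained sections of MMS-treated lenses showed fewer cells per area in the superficial layer, and fewer still after longer incubation. Its discussion also describes a decrease in epithelial cells in lenses clouded by MMS. How much of any array difference went with this loss of cells was not tested.

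Far more genes stood below Control than above it. A drop of 2-fold or more was read in 1096 genes (28.3% of those kept), and 49 genes (1.26%) were higher by that much. Of the lower genes 195 were 4-fold or more lower and 35 were 8-fold or more lower, against 5 genes 4-fold or more higher. By probe set the counts were 1128 (27.4%) lower and 52 (1.26%) higher. In 737 of the 1096 lower genes the MMS Day 4 signal had dropped under 5, and in 29 of the 49 higher genes the Control signal was under 5. Among the 2498 genes at 5 or more in both arrays, 359 were 2-fold lower and 20 were 2-fold higher. The median over all 3876 genes was -0.49. The median over all named probe sets, most of them dim, was 0.00, and the median over 1198 olfactory receptor probe sets, which a lens should not express, was 0.19. With each array centred on its kept probe sets every difference moved up by 0.63, and with each array centred on the olfactory receptor probe sets it moved by -0.26. The main lists are therefore given below with their median and with that median relative to all 3876 genes. Centring adds the same amount to every gene, so only quantile normalization of the arrays could change the place of a list relative to all genes, and there 65 of 67 lists kept their side. A gene kept only through Control had to be lower, and a gene kept only through MMS Day 4 had to be higher. Medians over genes at 5 or more in both arrays are therefore given beside some of the low lists. Low lists without such a median are not guarded against this effect of the filter. The set at 5 or more in both arrays selects in the other direction. It leaves out every gene that fell under 5 in MMS Day 4, bright ones in Control such as Pax6 and Slc2a1 among them. Its medians can therefore understate a drop.

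**Figure D1:**
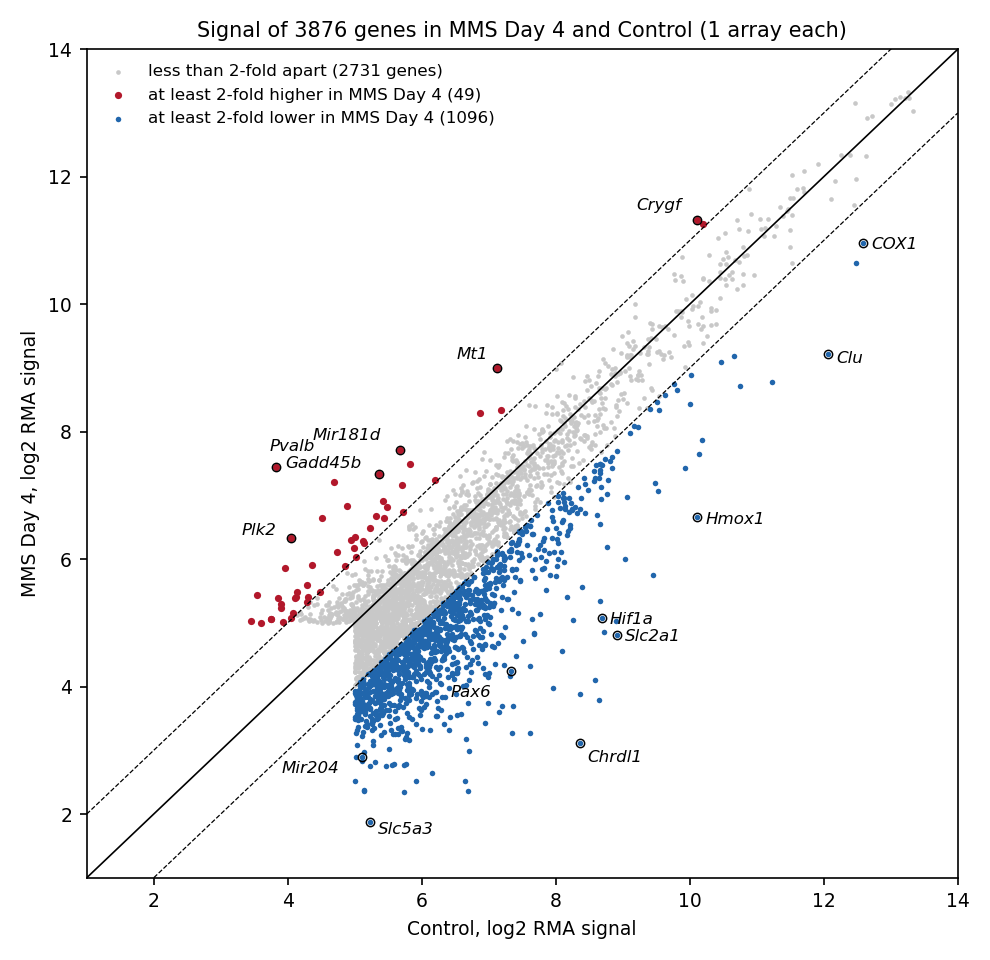
Log2 RMA signal of the 3876 genes in MMS Day 4 (vertical axis) and in Control (horizontal axis), 1 point per gene and 1 array per axis. The solid line marks equal signals and the dashed lines mark 2-fold. The cloud lies mostly under the diagonal, with 1096 genes at least 2-fold lower (blue), 49 at least 2-fold higher (red), and most genes with signals over 10 near the diagonal, apart from a few such as COX1 and Clu.

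The genes nearest to the limits show how little separates a call from none. Paf1, equal in both arrays at the limit itself, was kept, and Denr, with 4.74 in MMS Day 4 and a Control signal just under the limit, was not. Ndufa12, at 0.99, is not among the 49 higher genes, and Pef1, at 1.02, is.

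The gene farthest above Control was Pvalb, the calcium buffer parvalbumin, with 7.44 in MMS Day 4 and 3.83 in Control (3.61). Plk2, a stress-induced polo-like kinase and a p53 target, had 6.33 in MMS Day 4 and 4.06 in Control (2.27). Gadd45b, a stress sensor that acts upstream of MAP kinases, had 7.33 in MMS Day 4 and 5.36 in Control (1.97). These genes started low in Control and reached the middle of the signal range with MMS. Nqo1, a quinone reductase and NRF2 target, had 5.43 in MMS Day 4 and 3.55 in Control (1.89). Among genes at 5 or more in both arrays, Arl2, a small GTPase of tubulin folding, differed by 1.48, Pkib, an inhibitor of protein kinase A, by 1.43, Atp5pd, a subunit of ATP synthase, by 1.34, and H2aj, a histone H2A variant, by 1.34. Part of the upper end consists of probe sets named for processed or near-identical copies and for families silent in lens, whose signal the array may not separate from a parent gene: Fancd2osl1 (1.94), Rpl37al2 (1.90), Hmgb4l5 (1.46) and Olr876 (2.14) are of this kind and are uncertain. Defb11, a beta-defensin, at 5.03 in MMS Day 4 and 3.45 in Control, and Abo, the blood group glycosyltransferase, at 5.38 in MMS Day 4 and 3.86 in Control, passed the limit of 5 only with MMS.

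**Figure D2:**
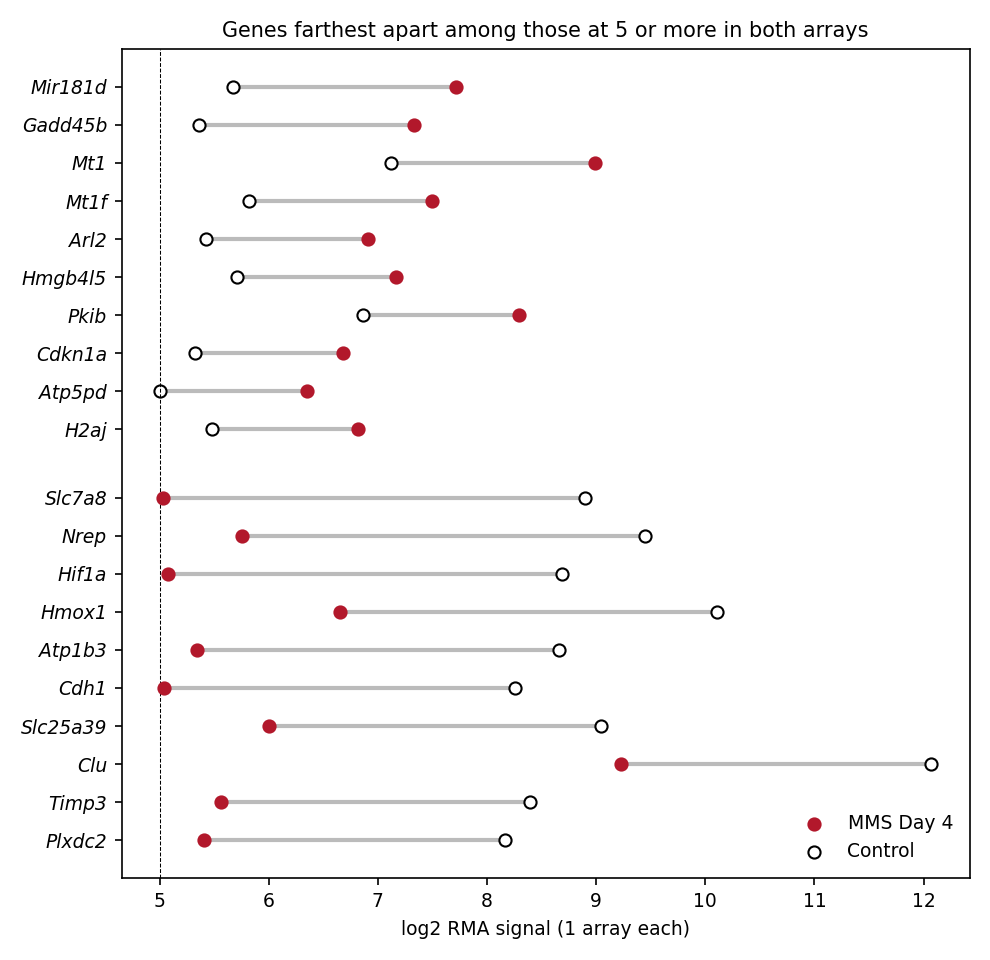
Log2 RMA signal in MMS Day 4 (filled) and Control (open) of the 10 genes farthest above and the 10 farthest below Control among genes at 5 or more in both arrays (dashed line at 5). The higher genes differ by 1.34 to 2.05, and the lower ones lie -2.76 to -3.87 from Control.

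Targets of p53, the transcription factor that DNA damage activates, lay on both sides of Control. Of 11 kept targets, 3 were 2-fold higher and 2 (18.2%) were 2-fold lower, against 1.26% higher and 28.3% lower over all genes. The lower share was thus under that of all genes and the higher share over it. The median was -0.28, which is 0.21 above all genes. Higher were Plk2, as above, Cdkn1a, the cell cycle inhibitor p21 (6.68 in MMS Day 4 and 5.32 in Control, 1.36), and Gdf15, a secreted stress signal (6.65 in MMS Day 4 and 5.44 in Control, 1.21). Lower were Ptp4a1, a phosphatase (7.87 in MMS Day 4 and 10.18 in Control, -2.31), and Ppm1d, the phosphatase that shuts the p53 response down (4.90 in MMS Day 4 and 6.59 in Control, -1.69). Mdm2, the ubiquitin ligase that removes p53, had 5.85 in MMS Day 4 and 5.91 in Control. Ccng1, cyclin G1, was the brightest target, with 10.64 in MMS Day 4 and 11.53 in Control (-0.89). The other 16 p53 targets on the array did not reach 5 in either array.

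Few repair genes could be read at all. Of 23 genes of base excision and alkylation repair on the array 5 were kept, and 0 of them were 2-fold apart. Apex1, the endonuclease that cuts at abasic sites, had 6.99 in MMS Day 4 and 6.38 in Control (0.60), and Polb, the polymerase that fills the gap, had 5.50 in MMS Day 4 and 5.95 in Control (-0.46). Mgmt, which removes methyl groups from guanine, had 5.08 in MMS Day 4 and 4.96 in Control (0.12). Of 21 genes of double-strand break and checkpoint signaling only Xrcc5, Xrcc6 and Rad23b were kept, at -0.69, -0.19 and 0.04.

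The study's own table of genes followed by RT-qPCR held 35 genes on the array, of which 19 were kept, 9 were 2-fold higher and 0 were 2-fold lower, with a median of 0.83. Genes entered that table by being more than 2-fold higher on an MMS array, so its direction here is no independent evidence. The study then kept those that also rose more than 2-fold over Control by RT-qPCR with biological replicates. Most of them peaked there before Day 4, and the paper's text does not say on which day each gene passed. Besides genes above, it included Atf3, a stress-induced transcription factor (6.30 in MMS Day 4 and 4.95 in Control, 1.35), Rbm3, a cold-induced RNA-binding protein (6.11 in MMS Day 4 and 4.74 in Control, 1.37), and Cib2, a calcium-binding protein (5.07 in MMS Day 4 and 3.75 in Control, 1.32). Id1, a target of BMP signals, stood at 0.83, Gpd1, glycerol-3-phosphate dehydrogenase, at 0.70, S100a11 at 0.60, Idi1, isopentenyl diphosphate isomerase, at 0.55 and the mitochondrial carrier Ucp2 at 0.42. Ephx1, an epoxide hydrolase, was the lowest at -0.67.

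Metallothioneins, small cysteine-rich proteins that bind zinc and copper and are induced by metals through the factor MTF-1, did not move together. Mt1 had 8.99 in MMS Day 4 and 7.12 in Control (1.87), and Mt1f had 7.50 in MMS Day 4 and 5.82 in Control (1.68). Mt2A stood on the other side of Control, at 6.73 in MMS Day 4 and 8.43 in Control (-1.70) as the mean of a dim probe set, with 3.97 in MMS Day 4 and 6.59 in Control, and a bright one, with 9.49 in MMS Day 4 and 10.3 in Control. The dim probe set thus put the gene at -2.62 and the bright one at -0.79. A further Mt1 probe set stayed under 5, with 2.57 in MMS Day 4 and 1.51 in Control. These genes are near-identical in sequence, and cross-hybridization was not tested. Mtf1 itself had 5.82 in MMS Day 4 and 5.82 in Control. Of the 10 kept genes of metallothioneins and zinc transporters, 2 were 2-fold higher and 3 were 2-fold lower, the others being Slc30a9 (-1.49) and Slc30a4 (-1.35), of the SLC30 family of zinc transporters.

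Mt1 and Mt2A are neighbors on rat chromosome 19 and both carry several copies of the short core to which MTF-1 binds, so their start regions are shown. The sequences are from RefSeq (GRCr8) and run from 250 bases before to 50 after the annotated start, on the minus strand, at chr19:10832926-10833225 for Mt1 and chr19:10838659-10838958 for Mt2A. Capitals mark matches to the core TGCACNC or TGCGCNC on either strand.
Mt1: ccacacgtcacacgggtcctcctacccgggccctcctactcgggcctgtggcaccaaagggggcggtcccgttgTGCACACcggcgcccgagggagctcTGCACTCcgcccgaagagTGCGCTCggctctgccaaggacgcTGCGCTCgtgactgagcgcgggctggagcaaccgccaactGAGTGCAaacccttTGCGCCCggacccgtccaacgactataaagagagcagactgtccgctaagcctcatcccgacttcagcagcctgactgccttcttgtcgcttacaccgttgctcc
Mt2A: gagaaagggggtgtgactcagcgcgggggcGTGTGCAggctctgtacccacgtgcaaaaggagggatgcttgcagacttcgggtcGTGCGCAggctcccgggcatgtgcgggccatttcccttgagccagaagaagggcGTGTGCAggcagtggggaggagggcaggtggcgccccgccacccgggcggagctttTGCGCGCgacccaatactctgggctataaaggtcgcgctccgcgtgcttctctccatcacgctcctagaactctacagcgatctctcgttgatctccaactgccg

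The Mt1 window held 6 cores and the Mt2A window 4. Of 33469 promoter windows of this length in the rat table, 24.2% held at least 1 core, 0.439% held 4 or more and 0.0388% held 6 or more. The Mt1 cores began between -176 and -55 from the start, and those of Mt2A between -220 and -55. Both windows also held TATAAA, at -32 in Mt1 and -31 in Mt2A, which 14.2% of all windows held. The window of Mt1f, on chromosome X, held 0 cores. A core in the letters is not a measurement of binding, and the 2 neighboring genes with cores stood on opposite sides of Control.

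Genes for microRNAs, short RNAs that pair with messenger RNAs through their seed, made up 4 of the 49 higher genes. Mir328 had 7.21 in MMS Day 4 and 4.69 in Control (2.51). Mir181d had 7.72 in MMS Day 4 and 5.67 in Control (2.05), Mir324 5.91 in MMS Day 4 and 4.36 in Control (1.56), and Mir483 6.25 in MMS Day 4 and 5.14 in Control (1.10). Of the 16 kept microRNA genes 13 stood above Control, with a median of 0.87 against -0.49 over all genes, and only Mir204 was 2-fold lower. The filter bears on this count: 7 of the 16 were under 5 in Control and so had to stand above it. In 2 of the 16 the MMS Day 4 signal was under 5, and these had to stand below it. Of 363 microRNA genes on the array only these 16 reached 5. The median Control signal over all 363 was 1.62. Their median difference was 0.16, beside 0.19 over the olfactory receptor probe sets. Over all 363, 235 stood above Control, 55 below it and 73 at an equal value, with 21 at least 2-fold higher and 3 at least 2-fold lower. These probe sets cover the hairpin, and whether they read the precursor or the mature form was not tested.

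Mir204, best known in the eye for its high level in lens and pigment epithelium, had 2.90 in MMS Day 4 and 5.12 in Control (-2.22). In the rat annotation it lies inside Trpm3, a gene of a cation channel that spans 884 kb, and Trpm3 had 4.18 in MMS Day 4 and 6.46 in Control (-2.28). Among the 2-fold higher microRNA genes Mir181d had no host listed, and the hosts of the others were under the limit of 5, too dim to set beside them. Mir185, at 0.96, lies inside Tango2, with 5.41 in MMS Day 4 and 6.21 in Control (-0.80). Mir761 (-0.15) lies inside Nrdc (-0.58) and Mir207 (-0.17) inside Dnaja1 (-0.55). Mir324 lies inside Acadvl, a fatty acid dehydrogenase with 4.89 in MMS Day 4 and 4.89 in Control. Mir328 lies inside Elmo3, with 3.44 in MMS Day 4 and 3.33 in Control, and Mir483 inside Igf2, the growth factor, with 2.91 in MMS Day 4 and 2.17 in Control. The mature sequences of Mir204, the lower gene, and of the 3 higher genes found in the RefSeq table (GRCr8) follow, with the seed, bases 2 to 8, in capitals.
rno-miR-204-5p: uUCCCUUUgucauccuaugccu
rno-miR-204-3p: gCUGGGAAggcaaagggacguu
rno-miR-181d-5p: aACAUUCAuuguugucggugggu
rno-miR-181d-3p: cCACCGGGggaugaauguca
rno-miR-324-5p: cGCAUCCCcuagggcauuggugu
rno-miR-324-3p: cCACUGCCccaggugcugcugg
rno-miR-483-3p: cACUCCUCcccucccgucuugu
rno-miR-483-5p: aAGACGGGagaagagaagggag

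The 4 genes carry 8 different seeds. Among the 25 mature sequences found for 14 of the 16 kept microRNA genes there were 25 different seeds. Mir328 is not among them.

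Crystallins, the structural proteins of the lens, held their signal. Of 10 measured genes 9 stood above Control, 2 were 2-fold higher and 0 lower, with a median of 0.19, which is 0.67 above all genes and 0.29 above them with quantile normalization. In the 4 scalings the median ran between -0.07 and 0.81. Bright genes and short genes in general also stayed near Control. The 93 genes with a mean signal over 10 had a median of 0.06, and the protein-coding genes of up to 3 kb had 0.00. Set against the median of each gene's own size class, the crystallins stood at 0.27. Crygf had 11.32 in MMS Day 4 and 10.11 in Control (1.21), and Crygn 11.25 in MMS Day 4 and 10.19 in Control (1.06). The other 8 lay between -0.03 and 0.28, and the brightest, Cryba1 with 13.34 in MMS Day 4 and 13.26 in Control, sits at the top of the signal range, where saturation was not tested. The gamma crystallin genes are near-identical, so single values of Crygf, Cryge and their neighbors are uncertain. The 13 kept genes of the fiber cytoskeleton and of organelle loss had a median of -0.52, close to that of all genes (-0.03 relative to it), with 3 of them 2-fold lower. Those were Efna5, an ephrin (4.22 in MMS Day 4 and 6.52 in Control, -2.30), its receptor family member Epha2 (4.99 in MMS Day 4 and 6.31 in Control, -1.32) and Ank2, a membrane anchor of the fiber cell (6.96 in MMS Day 4 and 8.20 in Control, -1.23).

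**Figure D3:**
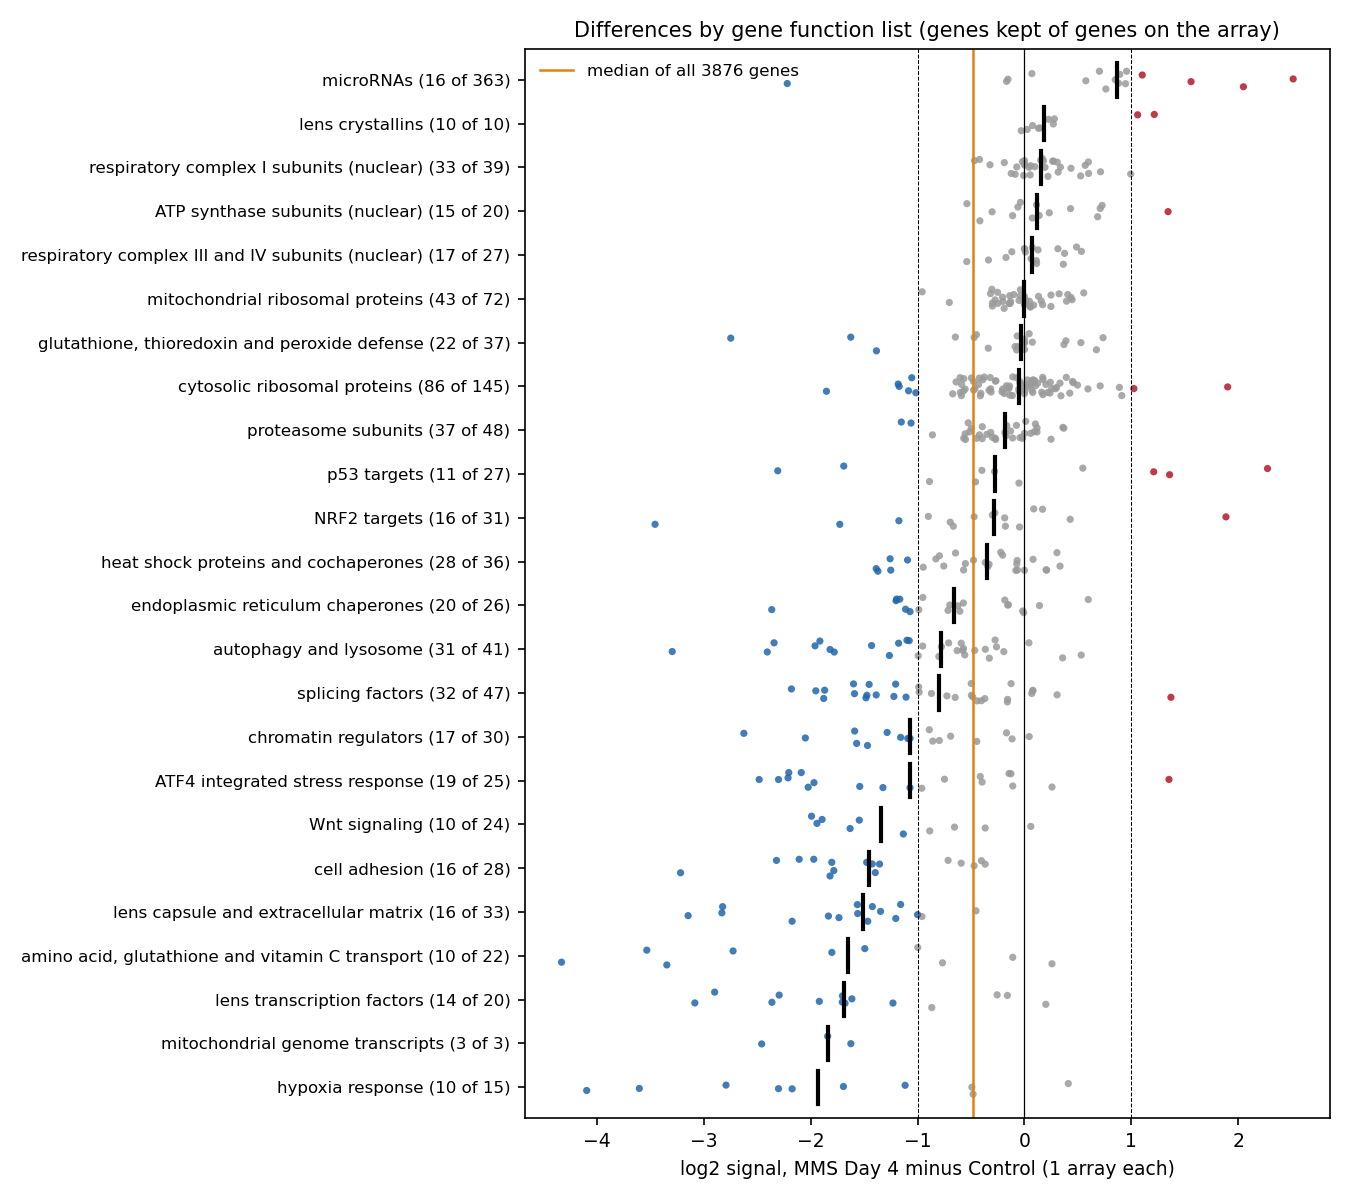
Log2 difference, MMS Day 4 minus Control, of every kept gene in 24 lists (1 point per gene, vertical scatter has no meaning), with list medians as black bars, the median of all 3876 genes (-0.49) as an orange line and 2-fold as dashed lines. Points are red when 2-fold higher and blue when 2-fold lower. List medians run between 0.87 for microRNAs and -1.93 for the hypoxia response.

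Messenger RNAs for nuclear subunits of the respiratory chain, for ribosomal proteins and for the proteasome kept close to Control. The 33 kept nuclear genes of respiratory complex I had a median of 0.15 with 0 at 2-fold in either direction, the 17 of complexes III and IV 0.07 with 0, and the 15 of ATP synthase 0.11 with 1 higher and 0 lower. The 43 mitochondrial ribosomal protein genes had a median of 0.00 with 0 at 2-fold, and the 86 cytosolic ones -0.05 with 2 higher and 6 lower, mostly probe sets named for copies. The 37 proteasome genes had -0.18 with 0 higher and 2 lower, Psme4 (-1.15) and Psme1 (-1.06). The sign of these medians depends on the scaling. Relative to all genes they stood 0.30 to 0.64 higher, and 0.23 to 0.68 higher with quantile normalization. Other lists of protein synthesis and energy supply lay nearer to all genes, of which 28.3% were 2-fold lower. The 32 kept translation initiation factors had a median of -0.42 with 5 of them (15.6%) 2-fold lower. The 17 tRNA synthetases had -0.36 with all below Control and 3 (17.6%) 2-fold lower. The 19 genes of the tricarboxylic acid cycle had -0.61 with 5 (26.3%) 2-fold lower.

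Only 3 of the listed transcripts of the mitochondrial genome itself were matched on the array, and these did not follow the nuclear subunits. COX1, COX2 and COX3, the catalytic core of complex IV, had 10.96, 8.77 and 10.64 in MMS Day 4, against 12.59, 11.23 and 12.48 in Control. All 3 were 2-fold lower (-1.62, -2.46 and -1.84), while the 17 kept nuclear genes of complexes III and IV lay between -0.54 (Uqcrc2) and 0.53 (Uqcrq). The 3 are among the brightest transcripts of the lens, and in the 4 scalings their median lay between -2.10 and -1.22.

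Transcription factors that make and keep the lens were among the lowest lists. Of 14 kept genes 10 were 2-fold lower and 0 higher, with a median of -1.69, which is -1.21 relative to all genes. In 8 of the 14 the MMS Day 4 signal was under 5, and the 6 genes at 5 or more in both arrays had a median of -0.56 (-0.30 relative to all such genes) with 2 of them 2-fold lower. Pax6, the master regulator of eye development, had 4.24 in MMS Day 4 and 7.33 in Control (-3.08). Sox2, its partner at early lens genes, had 3.52 in MMS Day 4 and 6.42 in Control (-2.90). Mab21l1, needed for lens formation in the mouse, had 4.46 in MMS Day 4 and 6.82 in Control (-2.36), and Tfap2a 4.22 in MMS Day 4 and 6.51 in Control (-2.30). All of these dropped under the limit of 5. Zeb2 stood at -1.92 and Meis2 at -1.70.

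The kept adhesion and capsule genes stood below Control. In each list 8 of the 16 kept genes were under 5 in MMS Day 4 and so had to be lower. All 16 kept adhesion genes stood below Control, 11 of them 2-fold, with a median of -1.45 (-0.96 relative to all genes), or -1.04 over the 8 genes at 5 or more in both arrays. Over all 28 adhesion genes on the array the median was -0.44. E-cadherin, Cdh1, had 5.04 in MMS Day 4 and 8.26 in Control (-3.22), Nectin3, an adhesion molecule, had 4.58 in MMS Day 4 and 6.90 in Control (-2.32), and the tetraspanin Cd9 4.28 in MMS Day 4 and 6.38 in Control (-2.11). All 16 kept genes of the capsule and extracellular matrix also stood below Control, 14 of them 2-fold, with a median of -1.51 (-1.03 relative to all genes), or -1.49 over the 8 genes at 5 or more in both arrays. Over all 33 on the array the median was -0.93. The capsule is a basement membrane built by the epithelium, and its main collagen chain Col4a1 had 4.84 in MMS Day 4 and 7.67 in Control (-2.83). The enzymes that modify collagen followed: Plod2, a lysyl hydroxylase, had 4.17 in MMS Day 4 and 7.32 in Control (-3.15), and P4ha1, a prolyl hydroxylase, 5.95 in MMS Day 4 and 8.13 in Control (-2.17). Timp3 (-2.82) and Timp1 (-1.74), inhibitors of matrix proteases, and Lamc1 (-1.83), a laminin chain, were lower too. The 6 kept collagens had a median of -1.31, but over all 36 on the array, most of them silent in lens, it was 0.24.

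Several of the 15 genes farthest below Control act at the cell surface or outside the cell. Chrdl1, which blocks bone morphogenetic proteins, had 3.11 in MMS Day 4 and 8.37 in Control (-5.25). Efemp1, a fibulin of the matrix, had 3.88 in MMS Day 4 and 8.37 in Control (-4.49), and Cpm, a membrane carboxypeptidase, 4.10 in MMS Day 4 and 8.58 in Control (-4.48). All 3 lay under the limit of 5 in MMS Day 4 and well over it in Control. S1pr3, a receptor for sphingosine 1-phosphate, stood at -4.35, and Anxa1, annexin A1, at -3.99 (3.97 in MMS Day 4 and 7.96 in Control). C10h17orf58, whose role is not given here, had 3.79 in MMS Day 4 and 8.65 in Control (-4.87), and R3hdml 3.27 in MMS Day 4 and 7.35 in Control (-4.08). Clu, the secreted chaperone clusterin, remained bright, with 9.23 in MMS Day 4 and 12.07 in Control (-2.84).

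Lists of growth factor signaling had few measured members. Of 10 kept Wnt genes 6 were 2-fold lower and 0 higher, with a median of -1.34 (-0.85 relative to all genes). The 7 genes at 5 or more in both arrays had a median of -1.13. Among the 6 lower genes were the co-receptor Lrp6 (-1.99), Gsk3b (-1.94) and Apc (-1.89), kinase and scaffold of the complex that destroys beta-catenin, and the ligand Wnt7b (-1.63). Activating and inhibiting members were thus low together. Of 7 kept genes of receptor tyrosine kinases and their feedback 4 were 2-fold lower, with a median of -1.10 against -0.19 over all 30 on the array. The 4 genes at 5 or more in both arrays had a median of -0.86, with 1 of them 2-fold lower. The lowest of the 7 were Pdgfra, Dusp1, a MAP kinase phosphatase (4.15 in MMS Day 4 and 6.99 in Control, -2.85), and Igf1r (3.49 in MMS Day 4 and 5.85 in Control, -2.36). The 8 kept TGF-beta and BMP genes had a median of -0.98 against -0.05 over all 27 on the array. Of the 8, 3 (37.5%, against 28.3% over all genes) were 2-fold lower, namely the ligand Tgfb2 (-1.90) and the receptors Acvr2a (-1.55) and Bmpr2 (-1.18). Of 2 kept Notch genes, Heyl, a target of the pathway, was higher (5.07 in MMS Day 4 and 4.05 in Control, 1.03).

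Transporters that supply the avascular lens were among the largest differences. Slc2a1, the glucose transporter GLUT1, had 4.81 in MMS Day 4 and 8.91 in Control (-4.10). Slc6a6, which takes up taurine, had 2.36 in MMS Day 4 and 6.69 in Control (-4.33), and Slc5a3, which takes up myo-inositol, 1.88 in MMS Day 4 and 5.23 in Control (-3.35). Taurine and myo-inositol are the osmolytes of the lens. The amino acid carriers Slc7a8 (5.03 in MMS Day 4 and 8.90 in Control, -3.87), Slc38a2 (4.56 in MMS Day 4 and 8.10 in Control, -3.53) and Slc7a2 (-2.73) stood low as well. Of 10 kept genes of amino acid, glutathione and vitamin C transport 6 were 2-fold lower and 0 higher, with a median of -1.65 (-1.16 relative to all genes). In 7 of them the MMS Day 4 signal was under 5, and the 3 genes at 5 or more in both arrays had a median of -0.11, above that of all such genes by 0.15. Of 28 ion transport genes on the array 6 were kept, 4 of them with an MMS Day 4 signal under 5, so that these had to be lower. Of the 6 kept genes 5 were 2-fold lower, with a median of -1.45 against -0.40 over all 28. Among the 5 were Atp1b3, a beta subunit of the sodium pump (5.34 in MMS Day 4 and 8.66 in Control, -3.32), the sodium, potassium and chloride cotransporter Slc12a2 (-1.47) and the calcium pump Atp2a2 (-1.42). Among 48 solute carriers in all, 17 were 2-fold lower and 0 higher, and their median of -0.76 was nearer to that of all genes. Of the 12 kept channels and membrane proteins of the lens 5 were 2-fold lower: Slc2a1, the epithelial connexin Gja1 (3.55 in MMS Day 4 and 6.53 in Control, -2.98), the adhesion molecules Ncam1 (-2.45) and Cadm1 (-1.75), and the epithelial water channel Aqp1 (-1.99). The other 7 lay between Nrcam at -0.85 and Lim2 at 0.16, with the fiber proteins Gja3 at -0.84, Lgsn at -0.47 and Mip at 0.02. The 8 channels and membrane proteins at 5 or more in both arrays had a median of -0.44, with 1 of them 2-fold lower.

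The hypoxia response had the lowest median of the lists, -1.93 (-1.45 relative to all genes), with 7 of 10 kept genes 2-fold lower and 0 higher. The 6 genes at 5 or more in both arrays had -1.09. Hif1a, the oxygen-regulated transcription factor, had 5.08 in MMS Day 4 and 8.69 in Control (-3.60), and its target Vegfa 4.72 in MMS Day 4 and 7.51 in Control (-2.79). Slc2a1 and P4ha1, already named, are targets too, as are Ddit4 (-2.30) and Egln1 (-1.69). The glycolytic targets differed among themselves: Hk2 stood at -1.58, but Pgk1 at 0.26 and Ldha at 0.60, and the 8 kept genes of glycolysis had a median of -0.26 with 3 of them 2-fold lower.

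Of 19 kept genes of the ATF4 response to amino acid and endoplasmic reticulum stress 10 were 2-fold lower, 1 (Atf3) was 2-fold higher and 8 were less than 2-fold apart, with a median of -1.07 (-0.59 relative to all genes), or -0.58 over the 12 genes at 5 or more in both arrays. Asns, asparagine synthetase, had 4.83 in MMS Day 4 and 7.04 in Control (-2.21), Trib3, a pseudokinase, 3.78 in MMS Day 4 and 5.98 in Control (-2.21), Psat1 of serine synthesis 6.98 in MMS Day 4 and 9.07 in Control (-2.09), and Nupr1 4.36 in MMS Day 4 and 6.85 in Control (-2.48). Atf4 itself had 9.22 in MMS Day 4 and 9.36 in Control, and Ddit3 (CHOP) 7.27 in MMS Day 4 and 8.59 in Control; these 2 were added after their values were seen. The 20 kept chaperones of the endoplasmic reticulum had a median of -0.66 (-0.18 relative to all genes) with 6 of them 2-fold lower, a share near the 28.3% over all genes, led by the sensor Atf6 (4.36 in MMS Day 4 and 6.73 in Control, -2.37). Ero1a, the oxidase of that compartment, was among the 15 lowest genes (2.99 in MMS Day 4 and 6.71 in Control, -3.72), as was Eprs1, the tRNA synthetase for glutamate and proline (4.85 in MMS Day 4 and 8.72 in Control, -3.87). The other 16 kept tRNA synthetases lay between -1.68 and -0.10. The 28 heat shock proteins and cochaperones had a median of -0.35 (0.13 relative to all genes, and -0.09 with quantile normalization), with 5 of them (17.9%) 2-fold lower and 0 higher.

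Antioxidant genes gave no common direction. Among 16 NRF2 targets 1 was 2-fold higher and 3 (18.8%) were 2-fold lower, against 1.26% higher and 28.3% lower over all genes. Of the 16, 4 stood above Control and 12 below it, with a median of -0.29 (0.20 relative to all genes). Nqo1 and Hmox1, both textbook targets, lay on opposite sides, with heme oxygenase Hmox1 at 6.65 in MMS Day 4 and 10.11 in Control (-3.46). Gclm, a subunit of the enzyme that starts glutathione synthesis, had 6.05 in MMS Day 4 and 7.22 in Control (-1.18). Of 22 genes of glutathione, thioredoxin and peroxide defense 3 were 2-fold lower, with a median of -0.03; these were Txnip, the thioredoxin inhibitor (4.20 in MMS Day 4 and 6.95 in Control, -2.75), Msrb3 (-1.63) and Gstk1 (-1.39). Ferritin, which stores iron, stayed bright in both chains, with Fth1 at 10.63 in MMS Day 4 and 10.55 in Control and Ftl1 at 13.03 in MMS Day 4 and 13.33 in Control.

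Lists of nuclear regulators, membrane traffic and lysosomes lay between -0.12 and -0.59 relative to all genes, of which 28.3% were 2-fold lower. The MMS Day 4 signal was under 5 in 12 of the 32 kept splicing factors and in 8 of the 17 chromatin regulators. It was also under 5 in 8 of the 31 genes of autophagy and lysosome. All of these genes had to be lower. Of 32 kept splicing factors 13 (40.6%) were 2-fold lower and 1, Rbm3, higher, with a median of -0.80 (-0.31 relative to all genes). Of 17 chromatin regulators 9 (52.9%) were 2-fold lower and 0 higher, with a median of -1.07 (-0.59 relative to all genes), led by the acetyltransferase Crebbp (3.89 in MMS Day 4 and 6.52 in Control, -2.63) and the insulator protein Ctcf (4.05 in MMS Day 4 and 6.10 in Control, -2.05). Of 31 genes of autophagy and lysosome 12 (38.7%) were 2-fold lower, with a median of -0.78 (-0.29 relative to all genes), led by Grn, progranulin (4.33 in MMS Day 4 and 7.62 in Control, -3.30), the protease Tpp1 (-2.41) and the autophagy receptor Sqstm1 (-2.34). Of 23 Rab GTPases 9 (39.1%) were 2-fold lower, and of 32 vesicle coat and traffic genes 10 (31.2%), a share near that of all genes, among them Rab14 (-2.27), Golim4 (-2.93) and Cltc, the clathrin heavy chain (5.97 in MMS Day 4 and 7.85 in Control, -1.88). Of 6 kept cell cycle genes, with a median of -1.14 against 0.00 over all 32 on the array, 4 were 2-fold lower, including Ccnd2, cyclin D2 (4.63 in MMS Day 4 and 6.90 in Control, -2.27), and Rb1 (3.87 in MMS Day 4 and 6.01 in Control, -2.14). Of 13 genes of fatty acid and sphingolipid synthesis 4 (30.8%, again near the share of all genes) were 2-fold lower, with Elovl6, a fatty acid elongase, at 3.31 in MMS Day 4 and 6.12 in Control (-2.80) and the ceramide synthase Cers4 at -2.13. The 11 genes of cholesterol synthesis had a median of -0.25, with Srebf1 (-1.60) and Msmo1 (-1.35) 2-fold lower.

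The difference ran with the size of the gene. Over 3811 protein-coding genes with a span in the RefSeq annotation (GRCr8), start to end with introns, the 309 genes of up to 3 kb had a median of 0.00, the 775 of 3 to 10 kb -0.14, the 1192 of 10 to 30 kb -0.40, the 1082 of 30 to 100 kb -0.90 and the 453 over 100 kb -1.12. At least 2-fold lower were 10.7%, 11.9%, 20.3%, 43.5% and 54.7% of these classes, and 2-fold higher 3.56%, 2.06%, 0.839%, 0.370% and 0.221%. The 1 gene over 100 kb that was 2-fold higher, Rplp2l3, is named for a copy of a ribosomal protein gene. This pattern was looked for after the values had been seen. The same order of medians held within each class of mean signal up to 9 that had 20 genes, for example 0.00, -0.14, -0.40, -0.80 and -0.96 at mean signals of 5 to 6 and -0.10, -0.18, -0.32, -0.65 and -0.69 at 7 to 8. Among genes at 5 or more in both arrays the medians were 0.01, -0.09, -0.27, -0.56 and -0.57. Without the ribosomal, respiratory chain, ATP synthase, histone and crystallin genes, 215 in all, they were 0.00, -0.18, -0.41, -0.91 and -1.14. With no signal filter the 2-fold lower share still ran from 1.80% to 16.3% across the classes, while the medians were 0.17, 0.05, 0.00, 0.00 and 0.00. Rescaling moves all classes alike and left the gap between the longest and the shortest class between -1.09 and -1.12.

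**Figure D4:**
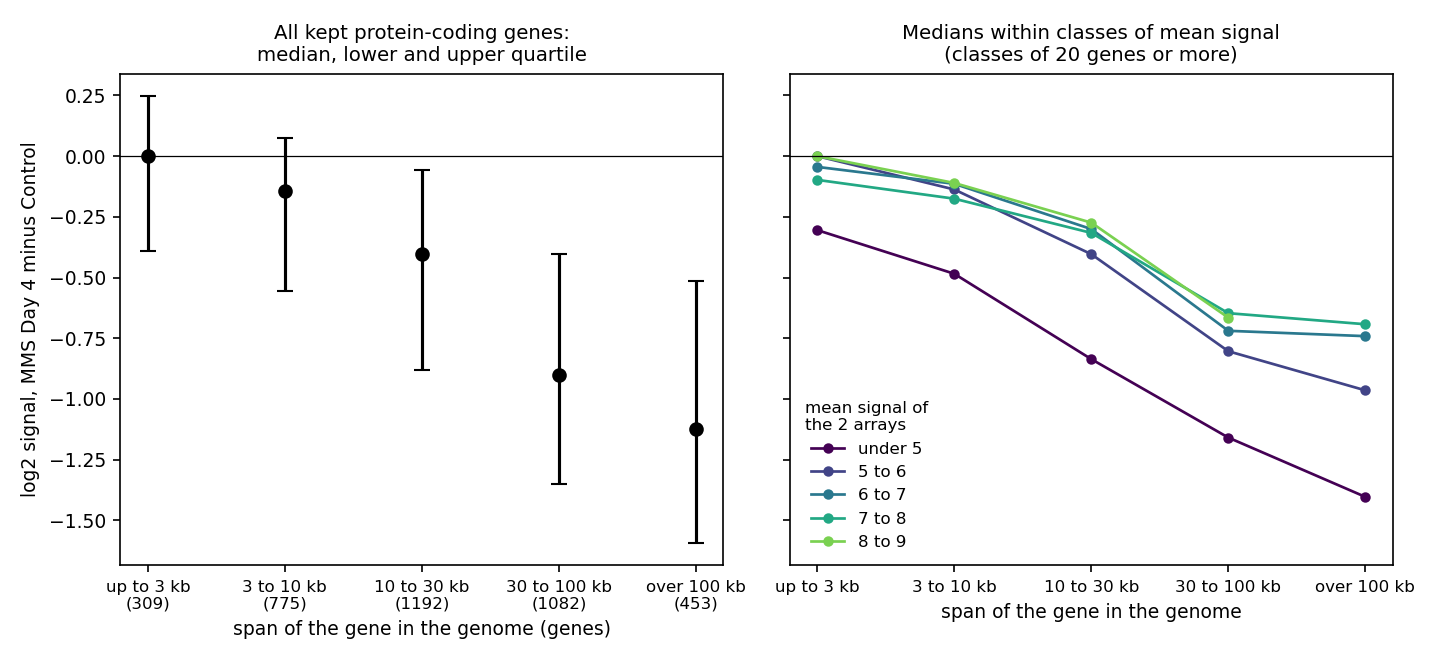
Left, log2 difference (MMS Day 4 minus Control) of 3811 protein-coding genes by the span of the gene in the genome: points are medians and bars reach from the lower to the upper quartile. Right, the medians within classes of the mean signal of the 2 arrays. The median is 0.00 in genes of up to 3 kb and -1.12 in genes over 100 kb, and the order of the classes holds at each signal level shown.

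Lists differ in gene size, and part of the order of the lists is shared with it. Set against the median of each gene's own size class, complex I genes stood at 0.34 in place of 0.64 against all genes, cytosolic ribosomal protein genes at 0.04 in place of 0.43, Wnt genes at -0.33 in place of -0.85, receptor tyrosine kinase genes at -0.03 in place of -0.61, TGF-beta and BMP genes at -0.06 in place of -0.49, and collagens at -0.20 in place of -0.83. Lens transcription factors (-1.05), the hypoxia response (-0.92), matrix genes (-0.83) and the ATF4 response (-0.74) remained low on that measure. Short genes could be low too: 125 genes of up to 10 kb were 2-fold lower, among them C10h17orf58, H4c14, a histone H4 gene (3.70 in MMS Day 4 and 7.36 in Control, -3.67), Slc5a3, Grn, Sox2, Dusp1 and Txnip. Bhlhe40, a circadian repressor named here after its values were seen, had 3.60 in MMS Day 4 and 7.15 in Control (-3.55).

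The difference also ran with signal. Genes with a mean signal of 5 to 6 had a median of -0.49, those of 6 to 7 -0.37, those of 7 to 8 -0.31, those of 8 to 9 -0.21, those of 9 to 10 -0.25 and the 93 genes over 10 0.06. Genes with a mean under 5 had -1.06, but these had to differ to be kept. The spread of all signals was narrower in MMS Day 4 (SD 1.82) than in Control (SD 2.00), and 2860 named probe sets reached 5 in MMS Day 4 against 3958 in Control. The part of the array's compression in the differences was not tested.

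The remaining arrays show where MMS Day 4 stands among the treatments. They share the Control array with it and differ from Control in culture time, so their values are set side by side without a count of agreement. Pvalb had 3.83 in MMS Day 2 and 7.44 in MMS Day 4, with 6.51 and 7.28 in the Bleomycin arrays of Day 2 and Day 6 and 3.83 in Control, so that at Day 2 of MMS it was still at the Control level. Nqo1 went the other way, with 7.64 in MMS Day 2 and 5.43 in MMS Day 4 and 3.55 in Control, and Mdm2 had 7.43 in MMS Day 2, 5.85 in MMS Day 4 and 5.91 in Control. Cdkn1a had 7.38 in MMS Day 2 and 6.68 in MMS Day 4, with 5.32 in Control. Hif1a had 7.80 in MMS Day 2 and 5.08 in MMS Day 4, with 8.69 in Control, while Hmox1 was already at 6.63 in MMS Day 2 and had 6.65 in MMS Day 4, with 10.11 in Control. Over the gene size classes, from the shortest to the longest, the medians against Control were 0.00, 0.00, -0.08, -0.41 and -0.65 in MMS Day 2, -0.01, -0.01, -0.05, -0.34 and -0.55 for Bleomycin at Day 2, and -0.01, -0.05, -0.18, -0.64 and -1.10 at its Day 6. These arrays hold the same genes against the same Control, whose own values enter every one of the differences.

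**Figure D5:**
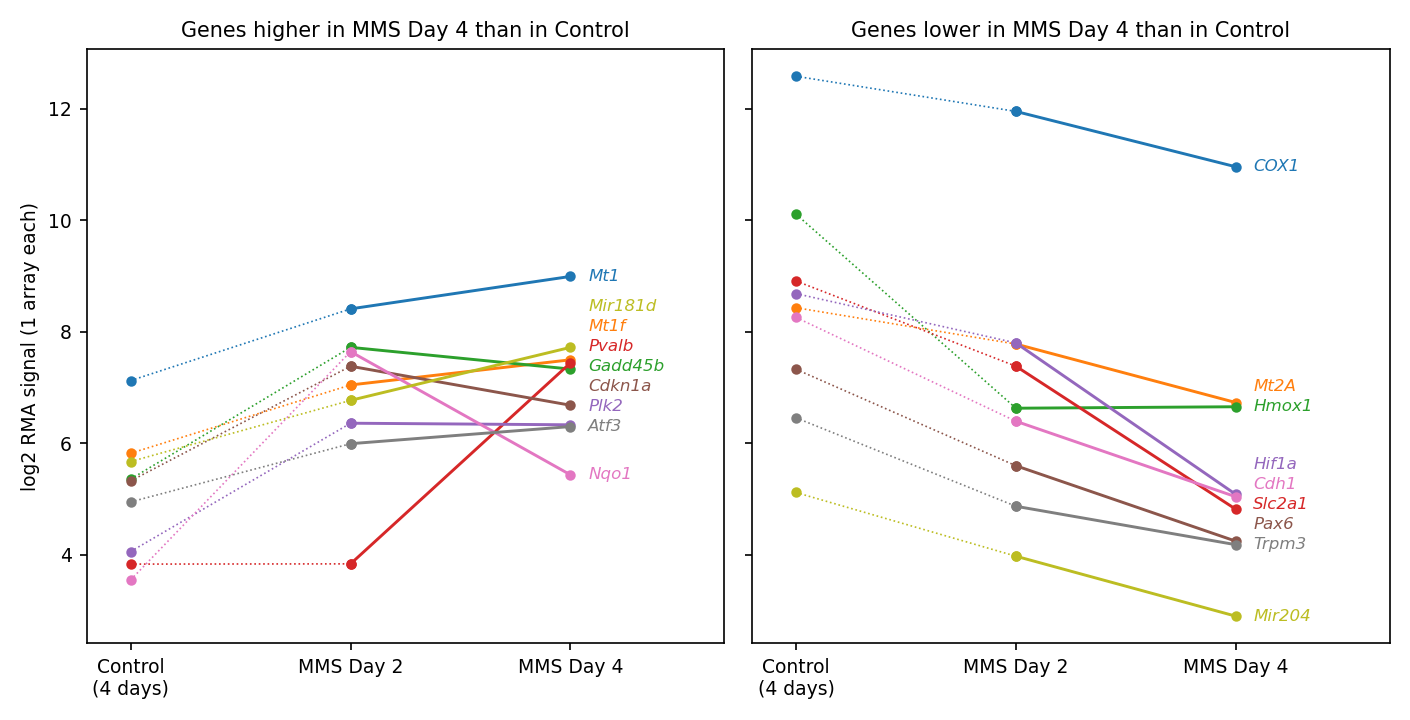
Log2 RMA signal of 9 genes that stood higher and 9 that stood lower in MMS Day 4 than in Control, in Control (4 days in medium), MMS Day 2 and MMS Day 4, 1 array each. Dotted lines join Control to MMS Day 2, which is no time course since the Control lens was cultured for 4 days. Nqo1, Cdkn1a and Gadd45b are highest on MMS Day 2 and Pvalb only on MMS Day 4, and Hmox1 is low on both.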

How the data were processed

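The authors hybridized lens RNA to the Rat Gene 2.0 ST array, 1 array per condition, and normalized it with RMA in R; the deposited values are log2 signals of 36685 probe sets, used as deposited. Per the study's methods, the Control array read a lens after 4 days in medium. Precision is limited by the number of arrays (1 a side), so there is no test. RMA returned exactly equal values in both arrays for 13.6% of all probe sets, so that a difference of 0.00 can mean that it did not separate them.

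Gene symbols came from the platform annotation (18511 probe sets with 1 symbol, 575 with several, which stayed in probe set counts only), and 18394 matched a RefSeq gene table (GRCr8), used for gene span, biotype, promoters and microRNAs. Probe sets with a gene name and a log2 signal of 5 or more in MMS Day 4 or Control were kept (the study applied the same minimum over all its samples), and a gene is the mean of its kept probe sets. Of 59 genes with several, 5 had probe sets over 1 apart. Computations used Python 3.11.15 with matplotlib 3.10.9, scipy 1.17.1, pandas 2.3.3 and numpy 2.4.6. Only the 2-fold call was run on simulated data. The planted differences were well over the limit and had no noise, so that run checks the code of the call and nothing else. Other filters, scalings and the brightest probe set of a gene were tried. Promoter windows were also searched for sterol, heat shock, C/EBP-ATF, AP-1, antioxidant and CCAAT elements, which are not described.

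Members and gene lists were chosen with earlier results of these data known. Named genes are the 15 farthest above and below Control, the 10 farthest each way among genes at 5 or more in both arrays, up to 6 per list with the largest difference, and the genes of the study's table. Other genes were named after their values were seen: Atf4, Ddit3, Bhlhe40, Rplp2l3, Mtf1, Mip, Lim2, Gja3, Lgsn, Gsn, Cryba1, Mir207, Mir761, the host genes Tango2, Nrdc and Dnaja1, the markers Des, Maf and Prox1, and those at the limits.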

Additional observations from a re-analysis of the deposited data

Results flagged for a closer look

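Probe sets with no gene name were left out of every comparison above. Of 17599 such probe sets 2499 reached a signal of 5 in MMS Day 4 or Control, and of these 321 were at least 2-fold higher and 574 at least 2-fold lower in MMS Day 4, with a median of -0.11. The lower side thus held 64.1% of the unnamed probe sets 2-fold apart, against 95.6% among the named ones, and 12.8% of the unnamed ones were 2-fold higher.

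Mt1 and Mt1f stood on opposite sides of Control with MMS and with Bleomycin. Relative to Control, Mt1 was at 1.87 in MMS Day 4, and at -2.89 and -2.48 after 2 and 6 days of Bleomycin. Mt1f was at 1.68 in MMS Day 4, and at -1.69 and -1.16 after those Bleomycin times. Mt2A was below Control throughout, at -1.70 in MMS Day 4 and at -4.80 and -5.74 after Bleomycin. With 1 array per condition the difference between the drugs was not tested.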

How the results depend on the processing

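No paired analysis was possible because each condition has 1 array, and for the same reason no array could be left out. The balance of higher and lower genes rests on the scaling. With each array centred on its kept probe sets, 266 probe sets were 2-fold higher and 413 lower (60.8% lower), with 244 and 399 genes and a median of 0.14. With quantile normalization of the 2 arrays these were 115 and 693 (85.8%), 105 and 673 genes and -0.10, and with centring on olfactory receptor probe sets 32 probe sets and 31 genes were higher, 98.0% of calls were lower and the median was -0.74. With no signal filter 472 probe sets and 424 genes were higher, the lower share was 76.5% and the median was 0.00. A minimum of 6 left 29 higher and 649 lower probe sets (28 and 630 genes), a minimum of 5 in both arrays 21 and 373 (20 and 359 genes) with a median of -0.26, and a minimum of 5 in any of the 5 arrays a median of -0.46. Fewer genes tested lowers the counts by construction. List medians that rest on genes kept through Control alone move with the filter, as given beside some of them. With no filter the collagen median was 0.24 in place of -1.31, and Arpc5, with 2 probe sets that disagree, 0.12 in place of -1.56. Among the 401 named genes and 67 lists, no other value past 2-fold changed sign under these filters and scalings or with the brightest probe set per gene; smaller ones can, since centring adds the same amount to every difference. The long against short gene gap, added after the values were seen, was -0.57 with 5 or more in both arrays and -0.17 with no filter, where most genes are dim. Dim signals limit all of this: 3.02 and 2.84 are the array medians of MMS Day 4 and Control, under the minimum of 5.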

Other observations

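Calcium-binding S100 proteins and annexins, which meet at the cell membrane, did not move as a group. Of 14 kept genes of annexins, S100 proteins and calpains 4 (28.6%, near the 28.3% over all genes) were 2-fold lower and 0 higher. Their median was -0.28. S100a6 had 10.74 in MMS Day 4 and 9.88 in Control (0.86), S100a1 had 3.09 in MMS Day 4 and 5.03 in Control (-1.94), and Anxa5 had 6.48 in MMS Day 4 and 8.21 in Control (-1.73). Of 29 inflammation genes on the array, with a median of 0.00 over all of them, 5 were kept, 4 of these only through Control. All 5 stood below Control, with Cd55, a complement inhibitor, at 2.81 in MMS Day 4 and 5.30 in Control (-2.49), the cytokine receptor chain Il6st at -1.62, its signal transducer Stat3 at -1.56, and the chemokine Ccl2 at -1.18. In the 5 kept genes of MHC class I and the interferon response, RT1-CE16, an MHC class I gene of a near-identical family, stood at 1.31, while Ifnar1, an interferon receptor chain, stood at -1.78 and B2m at -0.12. Of 27 actin cytoskeleton genes 9 (33.3%, near the 28.3% over all genes) were 2-fold lower, led by the crosslinker Actn4 (-1.58). Gsn, the actin-severing gelsolin, was higher (1.04). Aldh1a1, a retinal dehydrogenase abundant in lens, had 3.83 in MMS Day 4 and 6.30 in Control (-2.47), and the cytochrome P450 Cyp2b1 had 2.52 in MMS Day 4 and 6.65 in Control (-4.13).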
